A study of Rattus norvegicus with 8 samples.

Results

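The nitric oxide and cGMP genes described here are 10 genes of 1 signalling route: the 3 nitric oxide synthases (Nos1, Nos2, Nos3), the soluble guanylate cyclase subunits Gucy1a1, Gucy1a2 and Gucy1b1, the cGMP-dependent kinase gene Prkg1, its substrate gene Irag1, and 2 genes that bear on the synthases from outside, Gch1 and Ddah1. They were named as core parts of the route, with earlier results of these data known, and the rule itself uses no measured value. On the array, 12 of 45598 probes read transcripts of these 10 genes, with 2 probes each for Nos2 and Ddah1 and 1 for each other gene, and every one of the 12 was a single spot. Of the 12, 10 probes were bright enough to test, which left 9 of the 10 genes among 24553 tests in all. The RNA came from vessels of male rats. Of the samples, 4 were labelled as controls and 4 as the hypertensive disease model, each on a one-colour array of its own. Wistar-Kyoto, a strain with normal blood pressure, is given as the strain of both groups. The labels therefore leave unsettled which hypertensive model was used, and age, treatment and the vessel taken are not given in the sources used here.

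Nitric oxide is made from arginine by the synthases. Nos3 is the endothelial form, Nos1 the neuronal form, which also occurs in skeletal muscle, and Nos2 the form that inflammatory stimuli induce in macrophages and other cells. In the vessel wall the gas passes from endothelium to smooth muscle and binds soluble guanylate cyclase, a dimer of an alpha and a beta subunit, which then makes cGMP. The cyclic nucleotide activates protein kinase G, which lowers calcium and relaxes the muscle.

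All levels below are log2 of the processed signal minus the 75th percentile of the same array, and all changes are hypertensive minus control. That percentile was 405 to 503 in the control and 357 to 478 in the hypertensive arrays. The 8 arrays lay on 1 slide, with the controls in row 1 and the hypertensive rats in row 2, so that slide row and group cannot be told apart. Smooth muscle and endothelial transcripts were present. All 15 listed smooth muscle markers were tested. Of 18 listed endothelial markers 14 had a probe and 13 were tested. Each tested marker of both lists was well above background on all 8 arrays. That count was in part set by the filter, since a gene was tested only if well above background on 3 or more arrays of a group. The tested fibroblast, pericyte and macrophage markers were likewise above background on all 8 arrays. In hypertensive replicate 4 the mean of the 11 tested white adipocyte markers, each centred on its 8-array mean, was 2.04, against -0.96 to 0.34 on the other 7 arrays. In whole vessels, fewer cells of a type and less RNA per cell cannot be told apart.

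**Figure D1:**
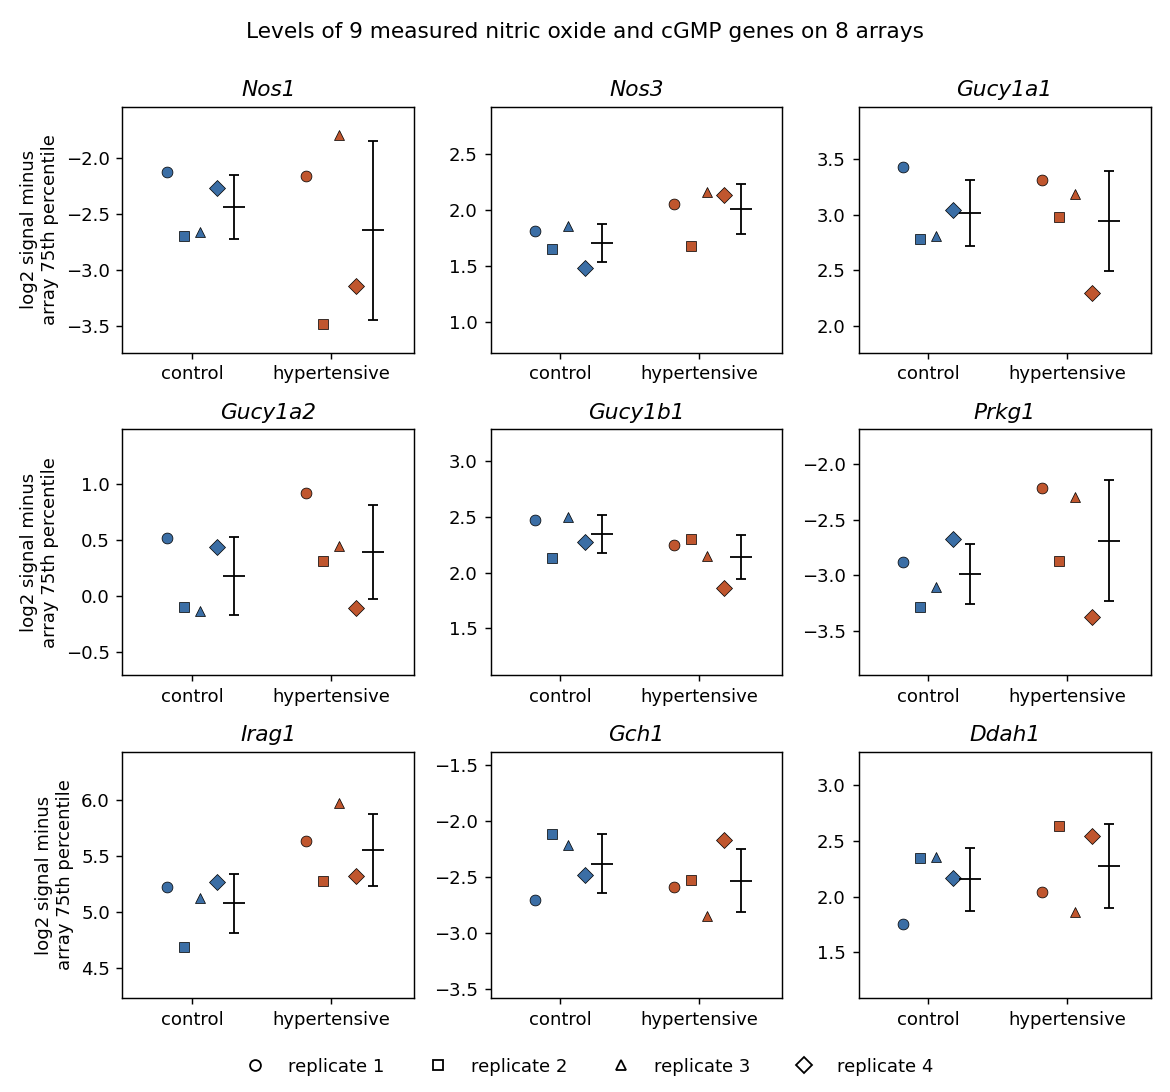
Levels (y axis, log2 processed signal minus the array's 75th percentile) of the 9 tested nitric oxide and cGMP genes in control (blue) and hypertensive (orange) rats, with 1 point per array, a shape for each replicate number, and the group mean with its SD (n = 4) as bars. Panels span the same number of log2 units on axes of their own, and only for Irag1 do the groups not overlap, by a narrow gap (5.27 against 5.28).

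None of the 9 tested genes passed the threshold of an adjusted p under 0.05 in the limma fit, against 4.52% of all tests (2.61% higher and 1.91% lower), and none of their 10 probes passed when each probe was tested on its own, against 4.37% of all kept probes. The adjusted p ran from 0.191 (Irag1) to 0.893 (Gucy1a1). At an unadjusted p under 0.05 there were 2 of 9, Irag1 and Nos3 (22.2%, against 20.3% of all tests), and with a plain equal-variance model 0 of 9, against 19.4%. The groups were separate for 1 of 9 (11.1%, against 13.6% of all tests). The 9 changes had a median of 0.11, with 5 above and 4 below 0, while the median of all tests was 0.04 and 57.7% of them lay above 0. That median of the 9 was not stable: it was 0.029 with median centring, 0.037 without hypertensive replicate 1 and 0.067 without control replicate 1, and 0.029 to 0.17 over the 17 alternatives that hold the same 9 genes. What the 4 arrays a group could resolve differed between genes: the residual SD was above the median of all tests for 9 of 9, and the 95% intervals of the changes reached from -1.02 (Nos1, lower end) to 0.89 (Irag1, upper end).

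Nos3, whose product supplies the wall with endothelial nitric oxide, read 1.82, 1.66, 1.86 and 1.49 in the controls and 2.05, 1.68, 2.17 and 2.14 in the hypertensive rats. Levels are given in the order of the replicate numbers here and below. Of the 4 hypertensive arrays 3 lay above every control, while replicate 2 fell among them. Its change was 0.30 ± 0.13 (SE of the limma fit, n = 4 per group), a 1.23-fold difference with an upper 95% bound of 1.52, and the adjusted p was 0.244. Endothelial markers were read beside it. Their mean was -0.03 to 0.09 in the controls and -0.13 to 0.10 in the hypertensive arrays, and none of the 13 markers passed. The mean joined markers that went both ways, with 5 of 13 at an unadjusted p under 0.05, against 20.3% of all tests. Vwf (0.46 ± 0.17) and Flt1 (0.43 ± 0.15) lay above 0, and Cldn5 (-0.43 ± 0.11), Eng (-0.32 ± 0.09) and Sox18 (-0.42 ± 0.14) below. The dimmer Vwf probe differed by 0.10 ± 0.10 (adjusted p = 0.629 over all probes). The dimmest Flt1 probe, at a mean level of -4.73, passed on its own (0.82 ± 0.15, adjusted p = 0.021 over all probes). The other dimmer Flt1 probes did not, at 0.30 ± 0.18 and 0.36 ± 0.13 (adjusted p = 0.395 and 0.177). Vwf, Flt1 and Sox18 were chosen after their values were seen. Subtracting that mean within each array left Nos3 at -0.35 to -0.01 in the controls and -0.27 to 0.35 in the hypertensive rats, a difference of 0.33 that missed the threshold (two-sided exact permutation p = 0.0857, 0.286 adjusted over 6 within-array differences, where 35 divisions of the arrays allow no p below 0.0286).

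Nos1 was the most variable of the 9 genes, with a residual SD larger than that of 97.3% of all tests. Its levels were -2.13, -2.69, -2.66 and -2.27 in the controls and -2.16, -3.49, -1.80 and -3.14 in the hypertensive rats. Hypertensive replicate 3 was the highest and replicate 2 the lowest of all 8 arrays, so the hypertensive group enclosed the controls. The means were -2.44 ± 0.28 (SD, n = 4) and -2.65 ± 0.80, with a change of -0.21 ± 0.36 (adjusted p = 0.782), which turned to 0.072 without hypertensive replicate 2. The signal behind these levels was low, 34.9 to 113 processed units. Nerve and skeletal muscle, both known sources of Nos1, were read beside it. Of 13 listed nerve markers, all with a probe, only 7 were bright enough to test. Of these 7, 6 were well above background on all 8 arrays. The mean of the 6 was -0.18 to -0.04 in the controls and -0.04 to 0.25 in the hypertensive rats, so that the groups nearly met. The seventh, Syt1, was above background on 1 control and 3 hypertensive arrays and is left out of that mean, a choice made after seeing the data. With Syt1 included, the nerve mean was -0.27 to -0.14 in the controls and 0.13 to 0.27 in the hypertensive rats. All 7 changes lay above 0, as did 57.7% of all tests. None of the 7 passed, with Stmn2 at 0.71 ± 0.30. Of 11 listed skeletal muscle markers 9 were tested, with a mean of -0.31 to -0.09 and -0.13 to 0.37. Of these 9, 2 passed, Myh1 higher and Mb lower (22.2%, against 4.52% of all tests). The list went both ways, with 6 of 9 changes above 0. The largest, Myh1 (2.28 ± 0.50) and Myl11 (1.19 ± 0.45), were on genes above background on only 3 of 4 control arrays, and both are kept in that mean. The part of nerve and skeletal muscle in the Nos1 values was not tested.

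Nos2 was not well above background on any of the 8 arrays by either of its probes. The processed signal of the probes was 2.43 to 8.14, and their levels were -7.60 to -5.46, so only a bound exists on both sides and no fold is given. Macrophage transcripts were present in the same RNA: 12 of 13 macrophage and monocyte markers were tested, and each of these 12 was well above background on all 8 arrays. In that list 1 gene passed, Mrc1 (-0.51 ± 0.12), which is 8.33% against 4.52% of all tests. The list mean was 0.04 to 0.19 in the controls and -0.30 to 0.16 in the hypertensive rats. Its markers went both ways but mostly lower, with only 3 of the 12 changes above 0. Of the 12, 5 had an unadjusted p under 0.05, against 20.3% of all tests. Csf1r differed by -0.49 ± 0.12 and did not pass (adjusted p = 0.0557). Lyz2, chosen after its values were seen, differed by 0.53 ± 0.14 (adjusted p = 0.0799), and its dimmer probes by 0.30 ± 0.18 and 0.13 ± 0.20.

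Gch1 encodes GTP cyclohydrolase, the first enzyme in the synthesis of tetrahydrobiopterin, the cofactor that all synthases need. It read -2.71, -2.12, -2.21 and -2.48 in the controls and -2.59, -2.53, -2.85 and -2.17 in the hypertensive rats, where replicate 4 stood highest, on a low processed signal of 54.4 to 108. The groups overlapped over most of their range, and the change was -0.15 ± 0.17 (95% interval of the fold 0.685 to 1.18, adjusted p = 0.657). Set against Nos3 within each array, the enzyme that uses the cofactor, Gch1 was 0.46 lower in relative change (a difference of -0.46, exact permutation p = 0.114, 0.286 adjusted over the 6). Of the other 6 tetrahydrobiopterin genes tested none passed. Spr, sepiapterin reductase, which takes the last step of that synthesis, differed by -0.17 ± 0.10, and Gchfr, which encodes the feedback regulator of GTP cyclohydrolase, by -0.06 ± 0.10. A second, dimmer Spr probe did pass when each probe was tested on its own (-0.41 ± 0.09, adjusted p = 0.040).

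Ddah1 encodes a hydrolase that clears asymmetric dimethylarginine, an endogenous inhibitor of the synthases. Its brighter probe read 1.75, 2.34, 2.36 and 2.17 in the controls and 2.04, 2.63, 1.86 and 2.54 in the hypertensive rats, with hypertensive replicates 2 and 4 above every control and replicate 3 below 3 of the 4. The change was 0.11 ± 0.20 (adjusted p = 0.791), and it turned below 0 without control replicate 1 (-0.020) or hypertensive replicate 2 (-0.0065). A dimmer probe went the other way, from -4.25 to -3.50 in the controls and -4.24 to -3.84 in the hypertensive rats, with a change of -0.23 ± 0.17 (adjusted p = 0.507 over all probes). The probes thus disagreed in sign and neither passed. Ddah2, the related hydrolase gene, differed by 0.04 ± 0.08. Prmt1, an arginine methyltransferase gene whose product gives rise to that inhibitor, differed by less than 0.01 on its brighter probe (SE 0.10) and by -0.49 ± 0.09 on its dimmer one (adjusted p = 0.022 over all probes). Ddah2 and Prmt1 were chosen after their values were seen.

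The soluble guanylate cyclase subunit genes Gucy1b1 and Gucy1a1 are next to each other among the protein-coding genes of rat chromosome 2, on the same strand, and their products form the main dimer of vascular muscle. The 250 bases before the start of each, and of Nos3, are shown to let the neighbouring pair be compared with the endothelial gene that signals to it. They are RefSeq sequences of GRCr8, all from the minus strand, at chr2:169779624-169779873 (Gucy1a1), chr2:169696988-169697237 (Gucy1b1) and chr4:11706582-11706831 (Nos3). Capitals mark a GC box (GGGCGG) or a CCAAT box (CCAAT) on either strand, which overlap by 2 bases in Gucy1a1.
Gucy1a1: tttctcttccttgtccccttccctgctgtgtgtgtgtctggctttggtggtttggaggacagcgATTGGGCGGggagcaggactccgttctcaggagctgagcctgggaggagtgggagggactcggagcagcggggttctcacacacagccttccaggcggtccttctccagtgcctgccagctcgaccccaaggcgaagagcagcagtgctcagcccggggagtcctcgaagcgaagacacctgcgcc
Gucy1b1: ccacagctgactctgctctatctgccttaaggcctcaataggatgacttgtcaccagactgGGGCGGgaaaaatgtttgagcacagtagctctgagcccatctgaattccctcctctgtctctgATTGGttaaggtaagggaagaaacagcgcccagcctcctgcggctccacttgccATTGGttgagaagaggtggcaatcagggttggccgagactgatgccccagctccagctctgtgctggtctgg
Nos3: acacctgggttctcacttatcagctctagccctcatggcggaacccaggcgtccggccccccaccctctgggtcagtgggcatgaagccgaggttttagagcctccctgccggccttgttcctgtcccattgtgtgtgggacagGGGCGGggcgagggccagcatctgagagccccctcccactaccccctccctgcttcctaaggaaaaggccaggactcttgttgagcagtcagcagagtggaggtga
Each of these windows held 1 GC box, which 30.5% of all 33469 RefSeq promoter windows of that length hold. The CCAAT box occurred once in Gucy1a1, in 2 places in Gucy1b1 and in none of the Nos3 letters (34.0% of all windows hold it). No TATA box (TATAAA, in 12.9% of all) and no CArG box (in 1.5% of all) was found in these 3 windows on either strand. The arrays read transcripts only, so no value here bears on a promoter's use.

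Gucy1a1 read 3.43, 2.78, 2.81 and 3.04 in the controls and 3.31, 2.98, 3.18 and 2.30 in the hypertensive rats. Hypertensive replicates 1 to 3 lay inside the control range and replicate 4 below it, and the change was -0.07 ± 0.23 (adjusted p = 0.893). Gucy1b1 read 2.47, 2.13, 2.50 and 2.27 in the controls and 2.25, 2.30, 2.15 and 1.86 in the hypertensive rats. Replicate 4 was again the lowest array, and all 4 hypertensive values were under the 2 highest controls, with a change of -0.20 ± 0.13 (0.868-fold, 95% interval 0.712 to 1.06, adjusted p = 0.404). Gucy1a2 encodes the other alpha subunit, best known from brain. It read 0.52, -0.10, -0.14 and 0.44 in the controls and 0.92, 0.31, 0.45 and -0.11 in the hypertensive rats, a change of 0.21 ± 0.24 (adjusted p = 0.651) that was 0.04 without hypertensive replicate 1 and 0.38 without hypertensive replicate 4. None of the 3 subunits differed beyond the spread of its arrays.

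The balance of alpha to beta subunit transcripts was compared within arrays. Gucy1a1 minus Gucy1b1, taken within each array and centred, was -0.43 to 0.22 in the controls and -0.30 to 0.33 in the hypertensive rats (difference 0.13, exact permutation p = 0.486). Gucy1b1 minus the smooth muscle marker mean was -0.13 to 0.30 in the controls and -0.54 to 0.13 in the hypertensive rats, a difference of -0.29 (exact permutation p = 0.143, 0.286 adjusted over the 6). A p of this size does not show that the genes act alike, since 4 arrays a group leave differences of this size unresolved.

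Prkg1, the kinase that carries out most effects of cGMP in smooth muscle, read -2.88, -3.29, -3.11 and -2.67 in the controls and -2.22, -2.87, -2.30 and -3.37 in the hypertensive rats. Hypertensive replicates 1 and 3 exceeded every control and replicate 4 lay below every control. The change was 0.30 ± 0.26 (adjusted p = 0.558) on a low processed signal of 41.5 to 79.8, and single arrays moved it: it was 0.53 ± 0.20 without hypertensive replicate 4 (adjusted p = 0.153), 0.14 without hypertensive replicate 1, 0.17 without hypertensive replicate 3 and 0.20 without control replicate 2. Against the smooth muscle marker mean the difference was 0.21 (exact permutation p = 0.486).

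Irag1 encodes the protein through which the kinase restrains calcium release at the inositol trisphosphate receptor. It was the only one of the 9 whose groups were separate, with 5.22, 4.69, 5.12 and 5.27 in the controls and 5.63, 5.28, 5.97 and 5.32 in the hypertensive rats. The gap between the groups lay between control replicate 4 and hypertensive replicate 2 and was far smaller than the SDs (0.27 and 0.32). The change was 0.48 ± 0.18, a 1.39-fold difference with a 95% interval of 1.04 to 1.86, and it missed the threshold (adjusted p = 0.191, and 0.133 to 0.367 over 19 alternative settings). Hypertensive replicate 3, the highest array for Irag1, was also the highest for the smooth muscle marker mean (0.44, against -0.24 to 0.16 on the other 7), and control replicate 2 was the lowest for both. The part of smooth muscle content in the Irag1 values was not tested. Irag1 minus Prkg1 differed by 0.18 (exact permutation p = 0.457).

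**Figure D2:**
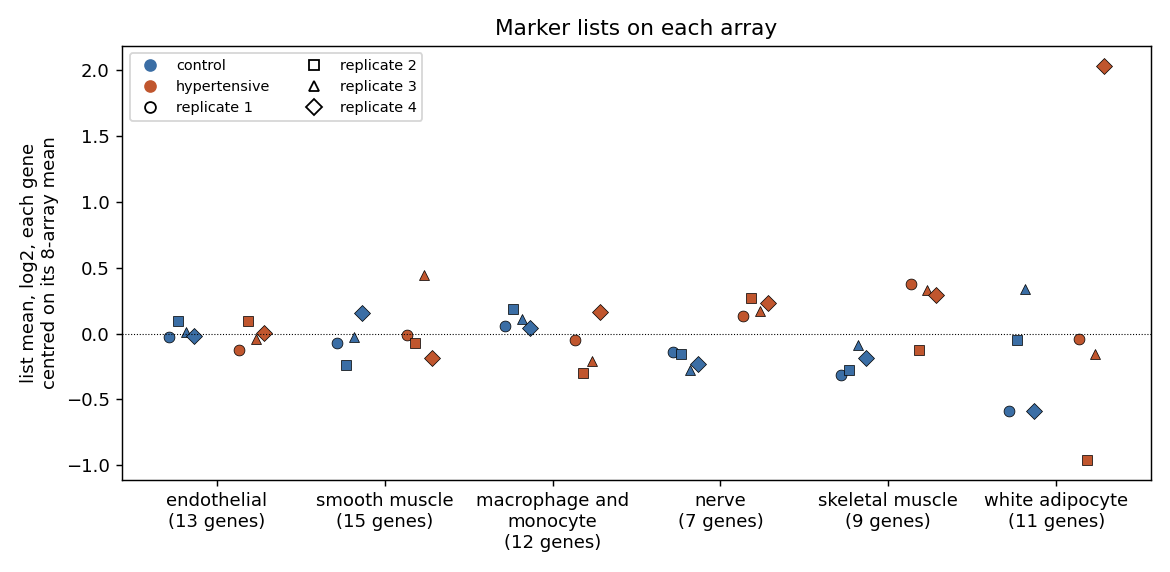
Mean log2 level of 6 marker lists on each array (y axis, each gene centred on its mean over the 8 arrays), in control (blue) and hypertensive (orange) rats, with a shape for each replicate number. Hypertensive replicate 4 stands at 2.04 for white adipocyte markers, and hypertensive replicate 3 at 0.44 for smooth muscle markers. The nerve mean plotted includes Syt1, above background on 1 of 4 control arrays, and without it the groups nearly meet (-0.04 in both). The skeletal muscle mean plotted includes Myh1 and Myl11, each above background on 3 of 4 control arrays.

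Single arrays recurred among the extremes. Hypertensive replicate 4 was the lowest hypertensive array for 4 of the 9 genes, Gucy1a1, Gucy1a2, Gucy1b1 and Prkg1, and the highest for Gch1, beside the adipocyte marker mean given above and a smooth muscle marker mean of -0.18. Control replicate 2 was the lowest control for 5 of the 9, Nos1, Gucy1a1, Gucy1b1, Prkg1 and Irag1, with a smooth muscle marker mean of -0.24. With the adipocyte marker mean as a covariate the change was 0.07 for Gucy1a1, 0.33 for Gucy1a2, -0.15 for Gucy1b1 and 0.42 for Prkg1, and none of the 9 genes passed. Leaving out hypertensive replicate 4 gave 0.14, 0.38, -0.11 and 0.53 for the same genes. The sign of Gucy1a1 turned under both, as it did without control replicate 1 (0.07). The covariate fit and the fit without hypertensive replicate 4 are not separate checks, since that array stood far from the others in the adipocyte marker mean.

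Around these genes, 64 others of the route were listed in 6 groups, 55 of them tested. Of the 55, 2 rose, 1 fell and 52 did not pass (5.45%, against 4.52% of all tests), and their median change was 0.03. The groups were separate for 7 of the 55, against 13.6% of all tests. Of 14 genes of nitric oxide synthesis and its control none passed. The arginase gene Arg1, whose product competes with the synthases for arginine, differed by 0.32 ± 0.14 (adjusted p = 0.229). Hsp90aa1, a chaperone gene whose product binds Nos3, differed by -0.17 ± 0.09 on its brighter probe and by 0.25 ± 0.10 on another. Among 6 genes that handle or reduce nitric oxide and its products none passed, with Adh5, which clears S-nitrosoglutathione, at 0.12 ± 0.09 and the globin gene Hba-a1 at -0.29 ± 0.37. With the adipocyte marker mean as a covariate Hba-a1 did pass, lower by that fit (-0.57, adjusted p = 0.0445). Near-identical alpha globin genes may share that probe.

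The other guanylate cyclases were represented by the natriuretic peptide receptor genes. Npr1, the receptor cyclase for atrial natriuretic peptide, read 3.50, 3.74, 3.73 and 3.84 in the controls and 4.03, 4.06, 3.87 and 4.12 in the hypertensive rats. Npr2, the receptor cyclase for C-type natriuretic peptide, read 3.31, 3.25, 3.39 and 3.42 and then 2.80, 3.19, 2.96 and 3.21. The groups were separate for both, as they were for 13.6% of all tests. The changes went in opposite directions, 0.32 ± 0.10 for Npr1 and -0.30 ± 0.11 for Npr2, but neither passed (adjusted p = 0.114 and 0.167). With normexp background correction both passed, Npr1 higher and Npr2 lower. Npr3, the clearance receptor, which has no cyclase domain, differed by 0.22 ± 0.20 (adjusted p = 0.582).

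Genes whose products break down or export cGMP included the single fall. Pde1b, a calcium and calmodulin-dependent phosphodiesterase gene, read -1.36, -1.52, -1.25 and -1.03 in the controls and -1.99, -2.17, -2.34 and -1.67 in the hypertensive rats. The groups were separate and the change was -0.75 ± 0.16 (0.594-fold, adjusted p = 0.0355). The second, dimmer Pde1b probe differed by -0.41 ± 0.14 and did not pass (adjusted p = 0.135 over all probes). Pde1c, of the same enzyme family, read -2.81 to -2.55 in the controls and -3.63 to -2.96 in the hypertensive rats, a change of -0.50 ± 0.15 that did not pass (adjusted p = 0.0975). Pde5a, the cGMP-specific phosphodiesterase gene, was looked at after its values were seen because its 3 probes disagreed: the brightest differed by -0.32 ± 0.14 and the others by 0.23 ± 0.17 and 0.37 ± 0.17, none past the threshold. In all, 1 of the 11 genes in this group fell (9.09%, against 1.91% of all tests lower and 4.52% in either direction). The other 10 did not pass.

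**Figure D3:**
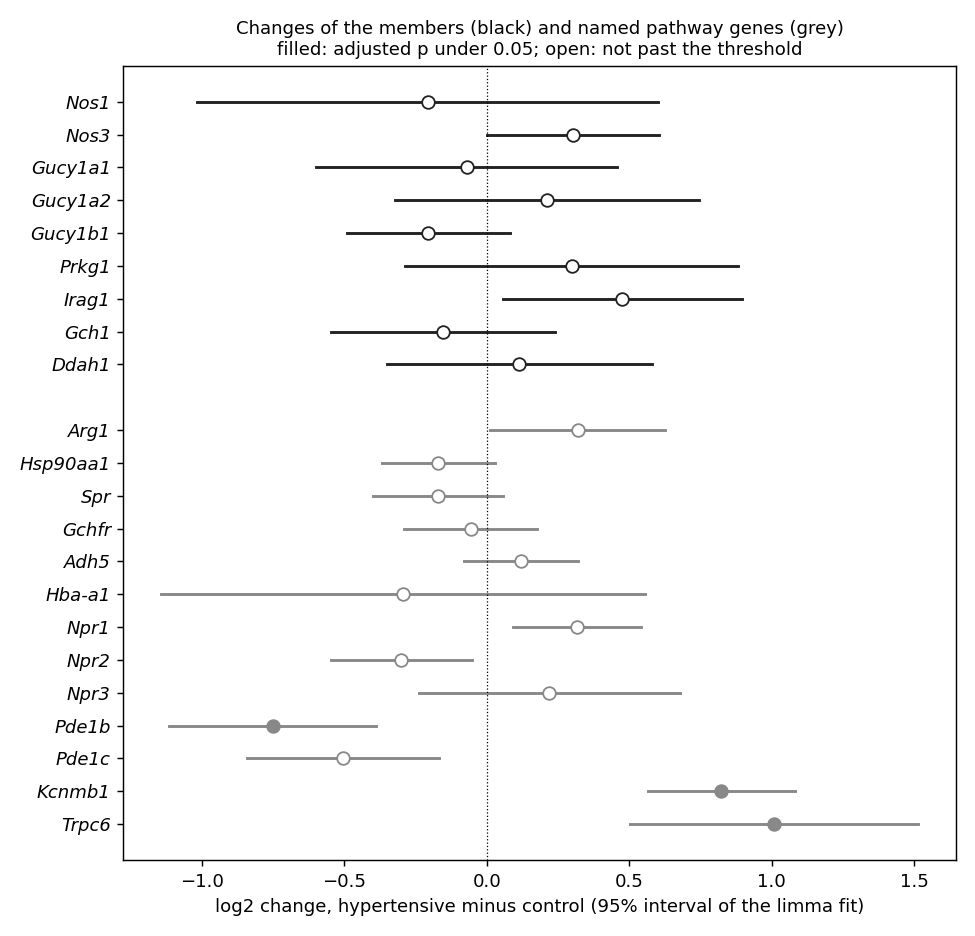
Log2 change, hypertensive minus control, with the 95% interval of the limma fit (x axis) for the 9 tested nitric oxide and cGMP genes (black) and the pathway genes named by rule (grey). Filled points passed an adjusted p under 0.05: Pde1b at -0.75, Kcnmb1 at 0.82 and Trpc6 at 1.01, and none of the 9 black points is filled.

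Among 15 effectors and kinase targets 2 rose (13.3%, against 2.61% of all tests higher and 4.52% in either direction). Both encode parts of membrane channels. Kcnmb1, which encodes the beta subunit of the calcium-activated potassium channel that the kinase opens, read -0.11, 0.04, -0.08 and 0.28 in the controls and 0.82, 0.87, 1.03 and 0.70 in the hypertensive rats. The lowest hypertensive array stood above the highest control, the change was 0.82 ± 0.11 (1.77-fold, adjusted p = 0.0050), and its second probe gave 0.78 ± 0.12. Kcnma1, which encodes the pore of the same channel, differed by 0.03 ± 0.29 on its brighter probe and 0.07 ± 0.26 on the other, and was chosen after its values were seen. Trpc6, a cation channel that the kinase inhibits, read -2.31, -2.31, -2.38 and -2.83 in the controls and -1.52, -0.85, -1.93 and -1.50 in the hypertensive rats, a change of 1.01 ± 0.22 (2.01-fold, adjusted p = 0.0397). The other 13 did not pass.

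**Figure D4:**
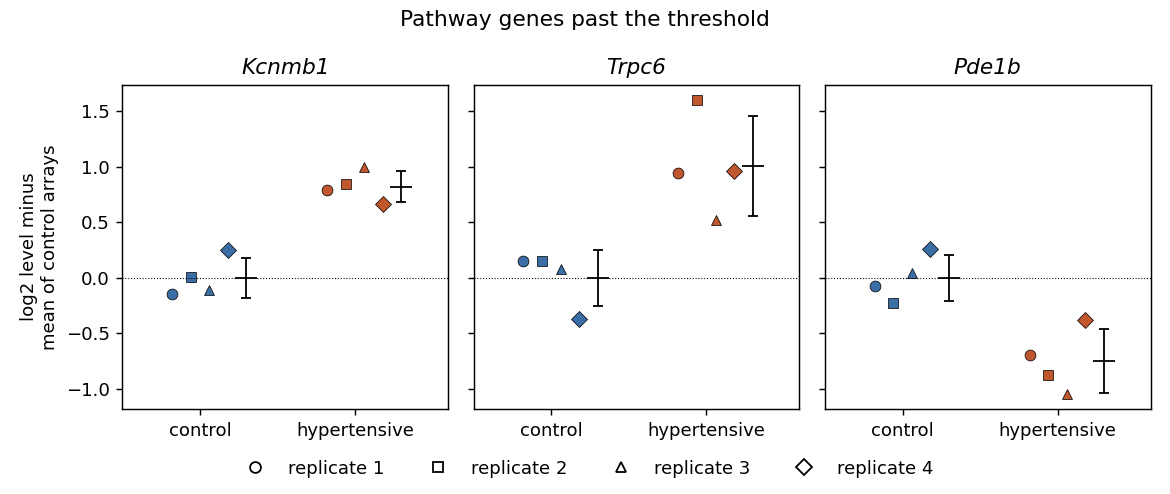
Levels of the 3 pathway genes past the threshold (y axis, log2 level minus the mean of the 4 control arrays) in control (blue) and hypertensive (orange) rats, with a shape for each replicate number and the mean with its SD as bars. All 4 hypertensive arrays lie above all 4 controls for Kcnmb1 and Trpc6 and below them for Pde1b.

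The call of Kcnmb1 held under all 19 alternative settings. That of Pde1b was lost without the filter on dim probes (adjusted p = 0.0836), with a plain equal-variance model (0.0977), and when 1 array was left out, unless that was control replicate 2 or hypertensive replicate 4 (0.0696 to 0.0942). That of Trpc6 was lost without any 1 array but hypertensive replicate 3 (0.0532 to 0.0859), with quantile normalization (0.0542), median centring (0.0570), the replicate block (0.0656), no filter (0.0888) and the plain model (0.117).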

How the data were processed

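Vessel RNA of 4 control and 4 hypertensive samples was extracted with Trizol and labelled with Cy3, per the labels' protocols. Groups and replicate numbers are those of the titles. The deposited scanner output gives an intensity for each spot, background-subtracted and processed by Agilent Feature Extraction, and marks of 0 or 1 per spot (an outlier, well above background), per the file headers. Its version is 10.7.1.1 in those headers and 12.1.1.1 in the submitters' processing notes. The deposited value table holds a ratio, the processed intensity over a constant close to the array's 75th percentile (deviation at most 0.0496% for values above 1). Its column medians were 0.092, 0.089, 0.086 and 0.091 in the controls and 0.101, 0.093, 0.097 and 0.090 in the hypertensive arrays. It has no gene centring and no direction, and served as an alternative.

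Outlier spots (213 to 396 of 58717 per array) were dropped unless a probe had no other spot, spots were averaged as log2, and the array's 75th percentile was subtracted. No gene spot was saturated, and 58.7% to 64.1% of probes per array were well above background. Probes well above background (50% or more of spots) on 3 or more arrays of a group were kept (27822). Transcript accessions were matched without version to NCBI rat genes (GRCr8), naming 21222 of 45598 probes (46.5%). A gene stood by its brightest kept probe, an unnamed probe for itself (24553 tests). limma 3.58.1 in R 4.3.3 (lmFit, eBayes, group as the only term) gave changes, SE and Benjamini-Hochberg adjusted p over all tests, with a threshold of 0.05. Other probes of a gene came from the same fit on all kept probes. Within-array differences were tested with two-sided exact permutation tests. The fit was also run on simulated data, with noise drawn separately for each gene and array, as a check of the calculation. Such data hold no differences shared by the genes of an array, so the check has no bearing on those.

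The number of arrays limits precision. Nothing in the labels says more of the replicates than that each is a vessel sample of a rat. The p-values therefore set the group difference against the spread between these samples. Members and gene lists (186 entries, 8 without a probe) were chosen with earlier results of these data known. Pathway genes named were those past the threshold, the 2 of smallest p per list and all of lists with fewer than 4 tested; Ddah2, Prmt1, Pde5a and Kcnma1 were added after their values were seen. Of marker lists counts, means and up to 2 genes are given, with 3 more for the endothelial list. Myl11 was added for the skeletal muscle list and Lyz2 for the macrophage list. Myl11 and Lyz2 were chosen after their values were seen. Normexp used the median spot signal, since the files hold no mean signal. The array design names rat build rn4, and probe coordinates are not used here. Promoter sequences came from RefSeq (GRCr8), with 9 of the 10 genes matched.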

Additional observations from a re-analysis of the deposited data

Results flagged for a closer look

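Of 46 sets of 4 arrays checked (each kept probe of the nitric oxide and cGMP genes and each named pathway gene, in each group), 1 held an array far from its 3 companions, where chance alone gives about 1 in 20. Control replicate 4 read -2.83 for Trpc6 against -2.38 to -2.31 on the other controls, a gap of 0.863 of the group's range, above Dixon's critical value for 4 samples. Without that array the change of Trpc6 was 0.88 and its adjusted p 0.0859.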

How the results depend on the processing

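None of the 9 genes passed under any of the 19 alternatives run (normexp, quantile, median centring, detection on all 8 arrays, no filter, per-probe tests, the deposited table, a plain model, array weights, the replicate block, the adipocyte covariate and each array left out). Signs turned for Gucy1a1 (0.066 with the adipocyte covariate, -0.19 to 0.14 with 1 array left out), Nos1 (-0.49 to 0.072 with 1 left out) and Ddah1 (-0.020 to 0.25 with 1 left out), and for no other of the 9. Pathway genes past the threshold numbered 5 with normexp, 6 with 1 test per probe (2 of them Kcnmb1), 4 with the adipocyte covariate, 1 with no filter, 1 with the plain model and 1 to 2 with 1 array left out, against 3. Over all tests, 1855 passed with normexp, 641 with no filter, 593 with the plain model, 675 with the replicate block and 629 to 1473 with 1 array left out (629, 725 and 695 without control replicates 1, 2 and 3 and 688 without hypertensive replicate 2), against 1111. The split of 641 higher and 470 lower became 529 and 586 with quantile normalization and 422 and 652 with median centring; the median of all tests moved from 0.04 to 0.00 and -0.04. The causes were not tested.

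Replicate numbers share a slide column, but same-numbered arrays deviated together only in part (correlations across genes of 0.207, 0.115, -0.004 and -0.148). The highest correlation of each control array with a hypertensive array of another number was 0.105, 0.065, 0.236 and 0.092. Same-numbered arrays were thus the closer for replicates 1 and 2 but not for 3 and 4, and the numbers were not taken as pairs. In the replicate block fit 0 of the 9 genes and 2 pathway genes passed. The 6 within-array differences kept their sign and stayed past no threshold under normexp, quantile normalization and the deposited table, and kept their sign with each array left out, where no test was run. Some nearly vanished then: Gucy1a1 minus Gucy1b1 was 0.015 without control replicate 3, Prkg1 minus the smooth muscle mean 0.034 without hypertensive replicate 1 and Irag1 minus Prkg1 0.027 without hypertensive replicate 4. Low processed signal limits Nos1, Nos2, Prkg1, Gch1 and the dimmer Ddah1 probe.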
